A study of Mus musculus with 7 samples.

Results

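The nuclear genes for the subunits of respiratory complexes II, III and IV, of cytochrome c and of ATP synthase (complex V) were described in interscapular brown adipose tissue of mice lacking PGAM5, a protein phosphatase of mitochondria, and of wild-type mice. The genes were chosen by symbol among protein-coding genes: Sdha, Sdhb, Sdhc, Sdhd, Cyc1, Cycs and every symbol that starts with Uqcr, Cox4, Cox5, Cox6, Cox7, Cox8 or Atp5, with Cox7a1 left out. The rule gave 48 of the 53715 gene identifiers counted: 4 of complex II, 10 of complex III with cytochrome c, 17 of complex IV and 17 of complex V. The knockout mice (KO, labelled PGAM5 KO) and the wild-type mice (WT) were both male C57BL/6J mice aged 10 weeks. How the knockout allele was made is not given in the sources used here. The labels list 4 KO and 3 WT mice as individuals, and 3 libraries of each genotype were counted. KO 4 was not analysed here. Whole frozen tissue was extracted and poly(A) RNA was sequenced, so lower RNA per cell and fewer cells of a type cannot be told apart.

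Complex II oxidizes succinate and passes its electrons to ubiquinone, complex III passes them on to cytochrome c, and complex IV hands them to oxygen. Complexes III and IV pump protons across the inner mitochondrial membrane, and complex V uses the return of those protons to make ATP. In brown adipocytes uncoupling protein 1 lets protons return without ATP synthesis, so that respiration yields heat, and brown fat of rodents is known for a large respiratory chain beside little ATP synthase. All subunits of complex II and cytochrome c are encoded in the nucleus, while complexes III, IV and V also hold subunits encoded in the mitochondrial genome.

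Total counts per library were 21826942, 21240349 and 18952348 in KO 1 to KO 3, against 25001886, 18034204 and 33617762 in WT 1 to WT 3. Pgam5 was at 0.0455, 0.129 and 0.537 CPM (counts scaled by library size) in KO libraries, against 6.75, 8.14 and 5.47 CPM in WT libraries. It fell by 4.84 on the log2 scale in KO (SE 0.59, adjusted p = 0.0243 in edgeR). KO 3 and WT 2 stood apart from the other libraries, at opposite ends (-66.8 and 65.0) of a first principal component that held 45.6% of the variance. The share of counts from the mitochondrial genome was lowest in KO 3, at 19.7% against 34.1% and 28.2% in KO 1 and KO 2. It was highest in WT 2, at 43.0% against 32.5% and 30.3% in WT 1 and WT 3. Summed brown adipocyte markers were between 15449 and 17683 CPM in KO libraries and between 13376 and 16806 CPM in WT libraries, with none of the 10 at 0 throughout. Of the 10, 4 had a positive log2 fold change (KO minus WT), and the median was -0.11. The sum hides differences between markers. Ucp1, for uncoupling protein 1, was at 4607, 3765 and 5974 CPM in KO libraries, against 2400, 1638 and 2853 CPM in WT libraries. Its log2 fold change was 1.06 (SE 0.28, adjusted p = 0.31 in edgeR).

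No subunit gene differed between KO and WT libraries beyond the threshold. Of the 48 genes, 45 passed the filter on low counts, and 0 of 45 had an edgeR adjusted p under 0.05, while 9 of the 15123 genes tested did (0.0595%). The smallest adjusted p among the subunit genes was 0.435, for Atp5d. At an unadjusted p under 0.05 edgeR called 0 of 45, beside 11.8% of all genes tested. DESeq2 called 0 of 45 at an adjusted p under 0.05, beside 1.12% of all genes, and 1 of 45, Uqcrb, at an unadjusted p under 0.05, beside 12.1% of the 15010 genes to which it gave an adjusted p. The count of 9 over all genes was 1 without KO 1, 0 without KO 2 and 17 without WT 2, and 0 of 45 subunit genes were called in each of these fits too. In 4 genes, Sdhd, Cyc1, Cox6a1 and Atp5d, every KO library was higher than every WT library, beside 10.1% of all genes. In 0 of 45 was every KO library lower than every WT library, beside 9.39% of all genes. That share of 4 in 45 was near the background.

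The log2 fold changes (KO minus WT) of the 45 genes ran from -0.60 for Uqcrb to 0.43 for Cox4i2, with a median of -0.15 and a median SE of 0.22. The median over all 15123 genes was -0.00, and over 110 other nuclear genes at or above the median level of the subunit genes (600.4 CPM) it was 0.04. By sign, 13 of 45 were positive and 32 negative, against 60 positive of those 110 genes. The 110 genes were bounded from below only. Subunit genes under that bound, down to Cox4i2 at a mean of 2.19 CPM, had no counterpart of like level among them. The median was 0.02 for complex II, -0.00 for complex III with cytochrome c, -0.22 for complex IV and -0.22 for complex V. The medians of complexes IV and V were 0.01 and -0.04 without WT 2, and -0.12 and -0.10 without KO 3. Leaving out both WT 2 and KO 3 gave 0.015 for complex IV and 0.025 for complex V. Single fold changes were as dependent on those libraries. Of the 25 tested genes described one by one, 15 moved by over 1.5 times or turned sign without KO 3, 13 without WT 2 and 24 without both. Leaving out any 1 library moved 22 of the 25 that far at least once, Sdhd, Cox7a2 and Cox8a being the exceptions.

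**Figure D1:**
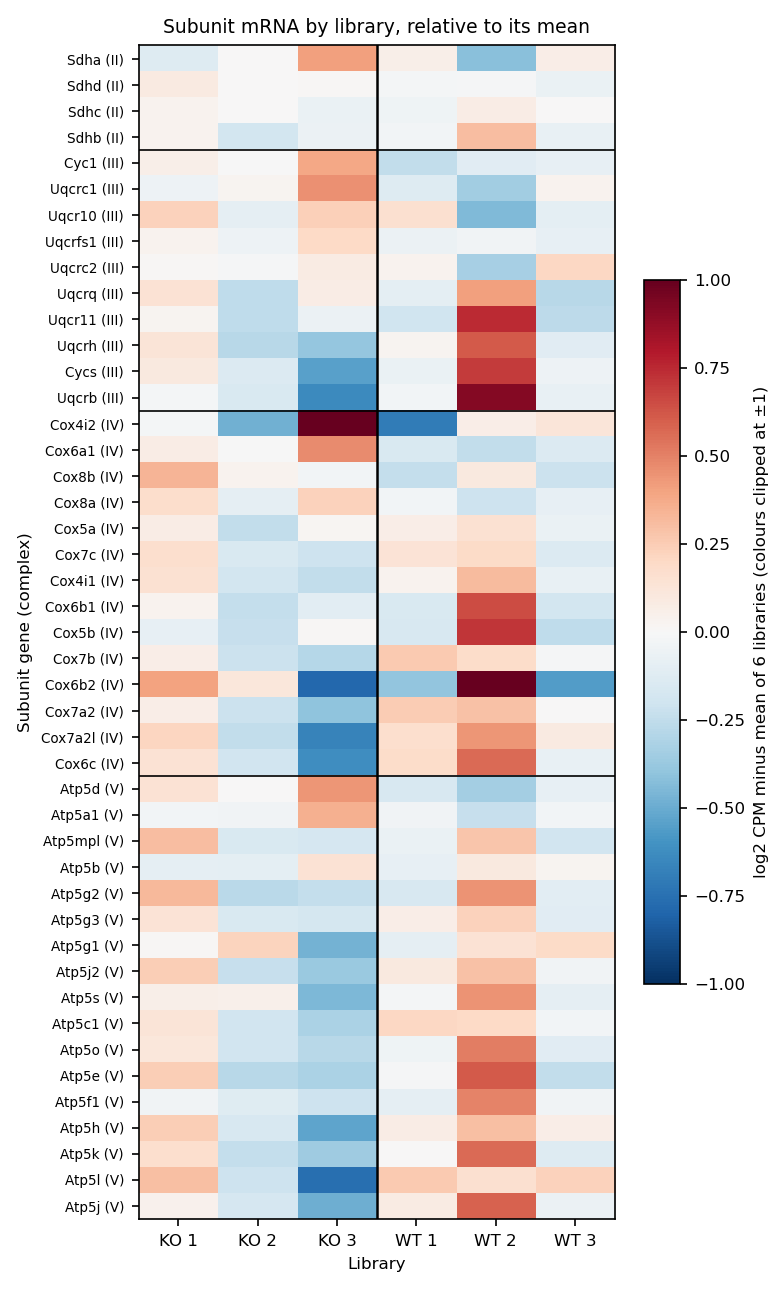
Log2 CPM of each of the 45 tested subunit genes in each library (columns, KO left of WT) minus the gene's mean over the 6 libraries, with genes in rows by complex and by fold change. Red is above and blue below the gene's mean, and most rows are reddest in WT 2, which was highest for 26 of 45 genes.

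The plot of the 6 libraries shows that many subunit genes had their extremes in the same libraries. WT 2 was the highest library for 26 of the 45 genes and the lowest for 8. KO 3 was the lowest library for 23 and the highest for 11. The remaining 4 libraries were the highest for 8 genes in all. Among the 110 other nuclear genes at or above the median subunit level, WT 2 was highest for 31.8% and lowest for 31.8%. In the same genes KO 3 was lowest for 26.4% and highest for 40.9%. The subunit genes made up 5.09%, 4.53% and 4.40% of the counts from nuclear genes in KO 1 to KO 3, against 4.65%, 5.24% and 4.50% in WT 1 to WT 3. The groups overlapped in this share.

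**Figure D2:**
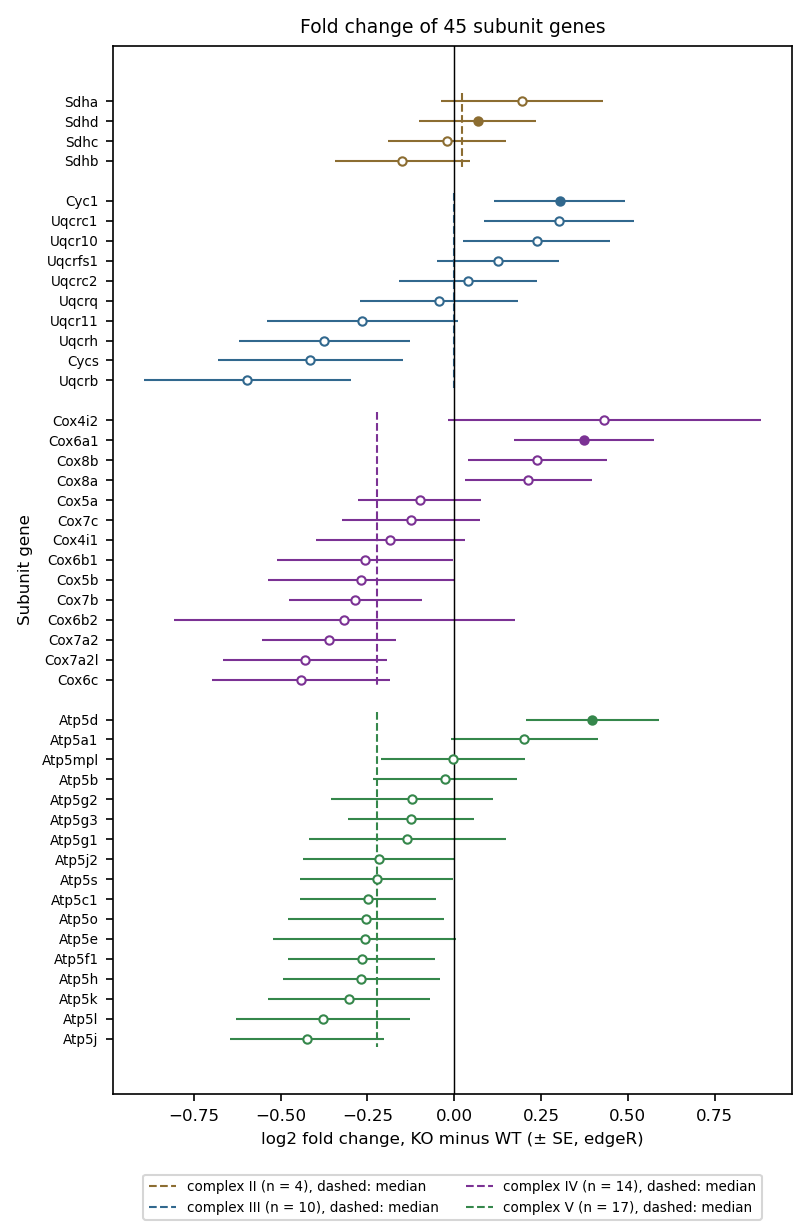
Log2 fold change, KO minus WT, of each of the 45 tested subunit genes with its SE from edgeR, by complex, with the median of each complex as a dashed line. Filled points mark the 4 genes whose KO and WT libraries did not overlap (Sdhd, Cyc1, Cox6a1 and Atp5d), and the medians of complexes IV and V lie at -0.22.

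Promoters of 36 of the 48 genes were matched in RefSeq (250 bases before to 50 bases after the transcript start, build GRCm38.p6). They were searched on both strands for short letters known from respiratory genes: TGCGCA, the core of the element of nuclear respiratory factor NRF1; CGGAAG, bound by ETS factors such as GABPA; AAGGTCA, of the oestrogen-related receptors (ERR); and AAGATGGC, of YY1. The NRF1 core was found in 8 of 36 subunit genes (22.2%), against 8.79% of 27025 genes with a promoter in RefSeq. The ETS letters were found in 19 of 36 (52.8%) against 18.8%. ERR letters were found in 5 of 36 (13.9%) against 5.38%. YY1 letters were found in 3 of 36 (8.33%) against 3.19%. A match describes the letters only. The background held every gene with a promoter in RefSeq and was not limited to genes expressed in brown fat. It was not matched for base content either, so the shares do not show a trait particular to respiratory genes. The promoters printed are those of 3 of the genes whose libraries did not overlap (Sdhd, Cox6a1 and Atp5d) and of the pair Cox8a and Cox8b, a ubiquitous and a muscle and brown fat form of one subunit. Each is given 5′ to 3′ on the strand of its gene, and capitals mark the motifs named, read on either strand.
Sdhd, chr9:50603800-50604099, minus strand, with 2 NRF1 cores, an ETS match (as CTTCCG) and an ERR match (as TGACCTT): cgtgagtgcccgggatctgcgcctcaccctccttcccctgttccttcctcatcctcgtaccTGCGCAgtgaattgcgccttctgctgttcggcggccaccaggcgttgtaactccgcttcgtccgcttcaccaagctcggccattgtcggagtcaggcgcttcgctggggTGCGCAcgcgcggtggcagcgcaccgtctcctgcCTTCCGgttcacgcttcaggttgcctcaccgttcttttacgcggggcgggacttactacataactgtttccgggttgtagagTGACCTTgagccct
Cox6a1, chr5:115348909-115349208, minus strand, with an NRF1 core and an ETS match: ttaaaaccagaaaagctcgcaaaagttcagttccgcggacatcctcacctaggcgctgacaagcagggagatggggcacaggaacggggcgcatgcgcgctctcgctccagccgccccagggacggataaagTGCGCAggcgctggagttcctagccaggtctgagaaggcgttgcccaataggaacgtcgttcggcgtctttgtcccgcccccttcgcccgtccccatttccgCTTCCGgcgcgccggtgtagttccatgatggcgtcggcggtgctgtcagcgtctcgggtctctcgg
Atp5d, chr10:80142025-80142324, plus strand, 1 of 2 promoters listed, with no match: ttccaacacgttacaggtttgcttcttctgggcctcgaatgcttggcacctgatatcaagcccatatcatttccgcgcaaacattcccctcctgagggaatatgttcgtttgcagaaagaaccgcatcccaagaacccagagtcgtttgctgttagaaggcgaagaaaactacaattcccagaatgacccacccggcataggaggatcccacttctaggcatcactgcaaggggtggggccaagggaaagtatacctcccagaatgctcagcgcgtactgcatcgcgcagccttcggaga
Cox8a, chr19:7217567-7217866, minus strand, with 2 ETS matches: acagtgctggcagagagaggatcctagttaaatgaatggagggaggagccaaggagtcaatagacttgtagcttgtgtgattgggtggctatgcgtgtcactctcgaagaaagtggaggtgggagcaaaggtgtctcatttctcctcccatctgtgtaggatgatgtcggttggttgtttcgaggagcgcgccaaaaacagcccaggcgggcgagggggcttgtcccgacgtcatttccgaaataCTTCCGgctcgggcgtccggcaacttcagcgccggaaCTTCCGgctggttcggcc
Cox8b, chr7:140900397-140900696, minus strand, with no match: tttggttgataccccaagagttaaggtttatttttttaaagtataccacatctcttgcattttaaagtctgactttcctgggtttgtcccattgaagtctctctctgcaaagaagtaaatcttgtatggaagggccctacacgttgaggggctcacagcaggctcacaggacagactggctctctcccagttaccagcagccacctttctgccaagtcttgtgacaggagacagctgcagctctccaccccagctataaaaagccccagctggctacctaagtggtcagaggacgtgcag
The 3 genes without overlap thus ranged from 4 matches in Sdhd to 0 in Atp5d. The start of Sdhd in RefSeq lies outside its GENCODE transcripts, so its window depends on the annotation. Of the Cox8 pair, the ubiquitous form held 2 matches and the tissue form 0.

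Complex II consists of a catalytic flavoprotein, Sdha, an iron-sulfur protein, Sdhb, and the membrane anchors Sdhc and Sdhd, which bind ubiquinone. All 4 genes were tested, 2 with a positive and 2 with a negative log2 fold change. Per kilobase of transcript, Sdhb was the most abundant over the 6 libraries (775 CPM per kilobase), followed by Sdha (598), Sdhd (488) and Sdhc (177). Sdha was at 1567, 1713 and 2276 CPM in KO libraries, against 1779, 1283 and 1792 CPM in WT libraries. The groups overlapped, with KO 3 highest and WT 2 lowest, and the log2 fold change was 0.19 (SE 0.23, adjusted p = 0.73 in edgeR), or 0.02 without KO 3, 0.05 without WT 2 and 0.31 without KO 1. Sdhb was at 901, 774 and 844 CPM in KO libraries, against 865, 1091 and 838 CPM in WT libraries. WT 2 was highest, opposite to its place for Sdha, and the log2 fold change was -0.15 (SE 0.19, adjusted p = 0.75 in edgeR), or -0.02 without WT 2 and -0.09 without KO 2. Sdhd (ENSMUSG00000000171.5, chr9:50596357-50603812, minus strand) was at 637, 600 and 606 CPM in KO libraries, against 593, 594 and 572 CPM in WT libraries. Every KO library was above every WT library, by a small margin: the means were 615 ± 20.1 CPM in KO and 586 ± 12.4 CPM in WT (SD, n = 3 each). Its log2 fold change was 0.07 (SE 0.17, adjusted p = 0.874 in edgeR). Sdhc had a log2 fold change of -0.02. The summed level of the complex was 3681, 3650 and 4263 CPM in KO libraries, against 3782, 3559 and 3766 CPM in WT libraries.

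Complex III takes electrons from ubiquinol through cytochrome c1, encoded by Cyc1, and the Rieske iron-sulfur protein, encoded by Uqcrfs1, and delivers them to the soluble carrier cytochrome c, encoded by Cycs. All 10 genes were tested, 5 with a positive and 5 with a negative log2 fold change. Cyc1 (ENSMUSG00000022551.8, chr15:76343523-76346260, plus strand) was at 677, 645 and 847 CPM in KO libraries, against 547, 599 and 613 CPM in WT libraries. Every KO library was above every WT library, and KO 3 was highest. The means were 723 ± 109 CPM in KO and 586 ± 35.0 CPM in WT (SD, n = 3 each), a log2 fold change of 0.30 (SE 0.19, adjusted p = 0.515 in edgeR), or 0.17 without KO 3. For the other electron carriers the log2 fold change was 0.13 for Uqcrfs1 and -0.41 for Cycs, neither past the threshold.

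Among the smaller subunits of complex III, Uqcrb, which lies beside the ubiquinone site, had the most negative fold change of all 45 genes. It was at 467, 425 and 303 CPM in KO libraries, against 463, 894 and 448 CPM in WT libraries. WT 2 stood alone at the top and KO 3 was lowest, while KO 1 and WT 1 were alike. The log2 fold change was -0.60 (SE 0.30, adjusted p = 0.451 in edgeR), and it was -0.20 without WT 2 and -0.03 without WT 2 and KO 3. Uqcrh, the hinge protein between cytochrome c1 and cytochrome c, was at 665, 501 and 466 CPM in KO libraries, against 621, 932 and 562 CPM in WT libraries. WT 2 was again highest, and the log2 fold change was -0.37 (SE 0.25, adjusted p = 0.531 in edgeR), or -0.12 without WT 2. Uqcr10, a small membrane subunit, was at 567, 453 and 569 CPM in KO libraries, against 540, 355 and 452 CPM in WT libraries. Here WT 2 was lowest, and the log2 fold change was 0.24 (SE 0.21, adjusted p = 0.63 in edgeR), or 0.09 without WT 2 and 0.39 without WT 1. These 3 were the most abundant complex III genes per kilobase (1142 CPM per kilobase for Uqcrh, 1128 for Uqcr10 and 934 for Uqcrb), and Cycs was the least (212). The large core proteins Uqcrc1 and Uqcrc2 had log2 fold changes of 0.30 and 0.04. The small subunits Uqcrq and Uqcr11 had -0.04 and -0.27. Summed over the complex, the level was 6590, 5937 and 6707 CPM in KO libraries, against 6073, 7291 and 6126 CPM in WT libraries.

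Complex IV, cytochrome c oxidase, has its redox centres in subunits made in the mitochondria. The nuclear subunits surround them, steady the enzyme and tune it, and several exist as isoforms for particular tissues. Of the 17 nuclear genes 14 were tested, 4 with a positive and 10 with a negative log2 fold change. The 3 untested genes are known for other tissues. Cox6a2, the heart and skeletal muscle form, had 0, 3 and 2 counts in KO libraries, against 1, 3 and 10 counts in WT libraries. The testis form Cox7b2 had 0, 0 and 0 counts in KO libraries, against 1, 0 and 1 counts in WT libraries, and Cox8c, another testis form, had 0 in all 6. A count of 0 allows a level of up to 0.0892 to 0.166 CPM, depending on the library (3 counts, counting error only).

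Cox4i1, the largest nuclear subunit and the site of regulation by ATP, was the most abundant complex IV gene per kilobase (2550 CPM per kilobase). It was at 2116, 1683 and 1608 CPM in KO libraries, against 1952, 2379 and 1813 CPM in WT libraries. The groups overlapped, and the log2 fold change was -0.18 (SE 0.21, adjusted p = 0.721 in edgeR), or -0.06 without WT 2, -0.11 without KO 3 and -0.31 without KO 1. Its lung isoform Cox4i2 was at 2.0, 1.46 and 4.10 CPM in KO libraries, against 1.25, 2.13 and 2.21 CPM in WT libraries. The most positive fold change of all 45 genes, 0.43 (SE 0.45, adjusted p = 0.691 in edgeR), thus belonged to a gene of 34 to 84 counts in KO libraries and 31 to 75 counts in WT libraries, and it was -0.11 without KO 3, 0.21 without WT 1 and 0.71 without KO 2.

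Cox6a1 (ENSMUSG00000041697.8, chr5:115345642-115348981, minus strand), the ubiquitous form of subunit VIa, was at 1173, 1111 and 1552 CPM in KO libraries, against 1003, 940 and 1017 CPM in WT libraries. Every KO library was above every WT library, KO 3 by the widest margin. The means were 1279 ± 238 CPM in KO and 987 ± 41.0 CPM in WT (SD, n = 3 each), a log2 fold change of 0.37 (SE 0.20, adjusted p = 0.471 in edgeR), or 0.21 without KO 3. Cox6c, a small subunit of the membrane part, had the most negative fold change of the complex. It was at 1218, 965 and 716 CPM in KO libraries, against 1254, 1631 and 1051 CPM in WT libraries, a log2 fold change of -0.44 (SE 0.26, adjusted p = 0.492 in edgeR). KO 1 lay between the WT libraries, and KO 3 and WT 2 were the extremes; the value was -0.27 without KO 3 and -0.26 without WT 2. Cox6b1, which faces cytochrome c, was at 737, 609 and 669 CPM in KO libraries, against 647, 1129 and 632 CPM in WT libraries. Only WT 2 stood above the KO range, and the log2 fold change was -0.26 (SE 0.25, adjusted p = 0.669 in edgeR), or 0.07 without WT 2, -0.39 without WT 1 and -0.41 without WT 3. Its testis form Cox6b2 was at 7.23, 5.92 and 3.18 CPM in KO libraries, against 4.16, 12.8 and 3.71 CPM in WT libraries, a log2 fold change of -0.32 (SE 0.49, adjusted p = 0.792 in edgeR). This was 0.47 without WT 2, and between -0.63 and -0.04 with any other library left out.

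Cox8b, a form known from heart, skeletal muscle and brown fat of rodents, was the second most abundant complex IV gene per kilobase (2362 CPM per kilobase), about the level of Cox4i1. It was at 1068, 865 and 829 CPM in KO libraries, against 713, 900 and 727 CPM in WT libraries. WT 2 alone reached into the KO range, and the log2 fold change was 0.24 (SE 0.20, adjusted p = 0.611 in edgeR), or 0.13 without KO 1. The ubiquitous Cox8a was at 733, 607 and 758 CPM in KO libraries, against 637, 560 and 613 CPM in WT libraries, a log2 fold change of 0.21 (SE 0.18, adjusted p = 0.62 in edgeR). KO 2 lay between WT libraries, and Cox8a held 1184 CPM per kilobase over the 6 libraries. Cox7a2, the ubiquitous form of subunit VIIa, was at 418, 343 and 303 CPM in KO libraries, against 476, 491 and 401 CPM in WT libraries. KO 1 alone reached the WT range, and the log2 fold change was -0.36 (SE 0.19, adjusted p = 0.469 in edgeR). The related Cox7a2l, which joins complexes III and IV into supercomplexes and is known to occur in a short form in C57BL/6 mice, was at 259, 187 and 140 CPM in KO libraries, against 251, 302 and 238 CPM in WT libraries. KO 1 again lay among the WT libraries, and the log2 fold change was -0.43 (SE 0.24, adjusted p = 0.475 in edgeR), or -0.24 without KO 3 and -0.68 without KO 1. Cox7a1, the muscle and brown fat form that the rule leaves out, was at 531, 369 and 307 CPM in KO libraries, against 351, 650 and 346 CPM in WT libraries (log2 fold change -0.16). The remaining genes, Cox5a, Cox5b, Cox7b and Cox7c, had log2 fold changes between -0.28 and -0.10, with adjusted p-values from 0.538 to 0.822. The complex IV sum was 10288, 8500 and 8809 CPM in KO libraries, against 9545, 11432 and 8749 CPM in WT libraries.

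Complex V has a catalytic head, a rotor with a central stalk and a ring of c subunits, and a peripheral stalk that holds the head still. All 17 genes were tested, 2 with a positive and 15 with a negative log2 fold change, and 0 had an adjusted p under 0.05. In the head, the catalytic beta subunit Atp5b was the most abundant per kilobase (2468 CPM per kilobase), and it was at 4437, 4400 and 5226 CPM in KO libraries, against 4461, 5040 and 4811 CPM in WT libraries. The log2 fold change was -0.03 (SE 0.21, adjusted p = 0.964 in edgeR), the groups overlapping, and between -0.11 and 0.02 with any 1 library left out. Its partner, the alpha subunit Atp5a1, was at 2691, 2681 and 3510 CPM in KO libraries, against 2685, 2345 and 2695 CPM in WT libraries. KO 3 alone stood clear of the WT libraries, and the log2 fold change was 0.20 (SE 0.21, adjusted p = 0.692 in edgeR), or 0.06 without KO 3.

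In the central stalk, the delta subunit Atp5d (ENSMUSG00000003072.15, chr10:80138632-80145818, plus strand) was the other positive gene. It was at 531, 481 and 653 CPM in KO libraries, against 431, 379 and 454 CPM in WT libraries. Every KO library was above every WT library. The means were 555 ± 88.5 CPM in KO and 421 ± 37.9 CPM in WT (SD, n = 3 each), a log2 fold change of 0.40 (SE 0.19, adjusted p = 0.435 in edgeR), or 0.26 without KO 3. The gamma subunit Atp5c1 and the epsilon subunit Atp5e, which turn with it, had log2 fold changes of -0.25 and -0.26.

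The peripheral stalk genes were all negative. Atp5h (subunit d), the most abundant of them per kilobase (952 CPM per kilobase), was at 711, 536 and 417 CPM in KO libraries, against 634, 741 and 629 CPM in WT libraries. KO 1 lay among the WT libraries, and the log2 fold change was -0.27 (SE 0.23, adjusted p = 0.617 in edgeR), or -0.10 without KO 3 and -0.48 without KO 1. Atp5j, coupling factor F6, had the most negative fold change of the complex. It was at 150, 129 and 103 CPM in KO libraries, against 154, 219 and 140 CPM in WT libraries, a log2 fold change of -0.42 (SE 0.22, adjusted p = 0.465 in edgeR). KO 1 alone reached the WT range, and the value was -0.21 without WT 2. Atp5j overlaps Gabpa on the opposite strand, and the genes had 20264 and 10144 counts over the 6 libraries. Whether counting used the strand is not given in the sources used here, so reads of the pair may not be separated. Atp5o, the subunit that binds the head, and Atp5f1, subunit b, had log2 fold changes of -0.25 and -0.27. Of the small membrane subunits, Atp5k, Atp5l and Atp5j2 lay between -0.38 and -0.22 and Atp5mpl was at -0.00. Atp5s, a coupling factor rather than a constant subunit, had a log2 fold change of -0.22.

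Subunit c, which forms the proton-driven ring, is made from 3 genes that give the same mature protein, and in rodent brown fat a low level of the Atp5g1 transcript is known to go with the low amount of ATP synthase. Atp5g1 was the lowest of the 17 complex V genes, at 1.47 CPM per kilobase over the 6 libraries, against 206 for Atp5g2 and 312 for Atp5g3. The transcript length used was 2675.5 bases for Atp5g1, against 586 for Atp5g2 and 718.5 for Atp5g3, which widens this gap. In CPM not divided by length the means were 3.92 for Atp5g1, 121 for Atp5g2 and 224 for Atp5g3, with Atp5g1 still lowest. It was at 3.91, 4.51 and 2.79 CPM in KO libraries, against 3.64, 4.27 and 4.41 CPM in WT libraries, a log2 fold change of -0.14 (SE 0.28, adjusted p = 0.851 in edgeR). Atp5g2 was at 148, 98.3 and 101 CPM in KO libraries, against 106, 161 and 110 CPM in WT libraries, a log2 fold change of -0.12 (SE 0.23, adjusted p = 0.835 in edgeR). Atp5g3 was at 245, 201 and 197 CPM in KO libraries, against 233, 262 and 206 CPM in WT libraries, a log2 fold change of -0.12 (SE 0.18, adjusted p = 0.779 in edgeR). The 3 genes overlapped between genotypes and kept the order Atp5g3, Atp5g2, Atp5g1 in each library in CPM. With any 1 library left out, the fold change ran from -0.29 to 0.04 for Atp5g1, from -0.33 to 0.10 for Atp5g2 and from -0.22 to -0.04 for Atp5g3. Summed over all 17 genes, complex V was at 12781, 11548 and 12969 CPM in KO libraries, against 12291, 13677 and 12366 CPM in WT libraries.

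Isoform use was compared within each library as the log2 ratio of the counts of a pair, which is not scaled by transcript length. Of 7 pairs listed, 6 had enough counts, and Cox6a2 with Cox6a1 did not. The Cox8b/Cox8a ratio was 0.54, 0.51 and 0.13 in KO libraries, against 0.16, 0.68 and 0.25 in WT libraries. The means were 0.39 ± 0.23 in KO and 0.37 ± 0.28 in WT (SD, n = 3 each), with Cox8b ahead of Cox8a in counts in every library. Cox4i2/Cox4i1 was -10.03, -10.15 and -8.61 in KO libraries, against -10.58, -10.10 and -9.67 in WT libraries, so KO 3 alone stood apart. The difference, KO minus WT, was 0.52 for Cox4i2/Cox4i1, 0.03 for Cox6b2/Cox6b1, -0.10 for Cox7a2l/Cox7a2, 0.03 for Cox8b/Cox8a, 0.04 for Atp5g2/Atp5g1 and 0.03 for Atp5g3/Atp5g1. Exact two-sided permutation tests gave p from 0.5 to 1, all 1 after Benjamini-Hochberg adjustment over the 6 pairs, where 3 libraries against 3 cannot go below 0.1. The Cox4i2/Cox4i1 difference was smaller than the SD of KO libraries (0.86) but larger than that of WT libraries (0.46). For each other pair the difference was smaller than the SD of either genotype.

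**Figure D3:**
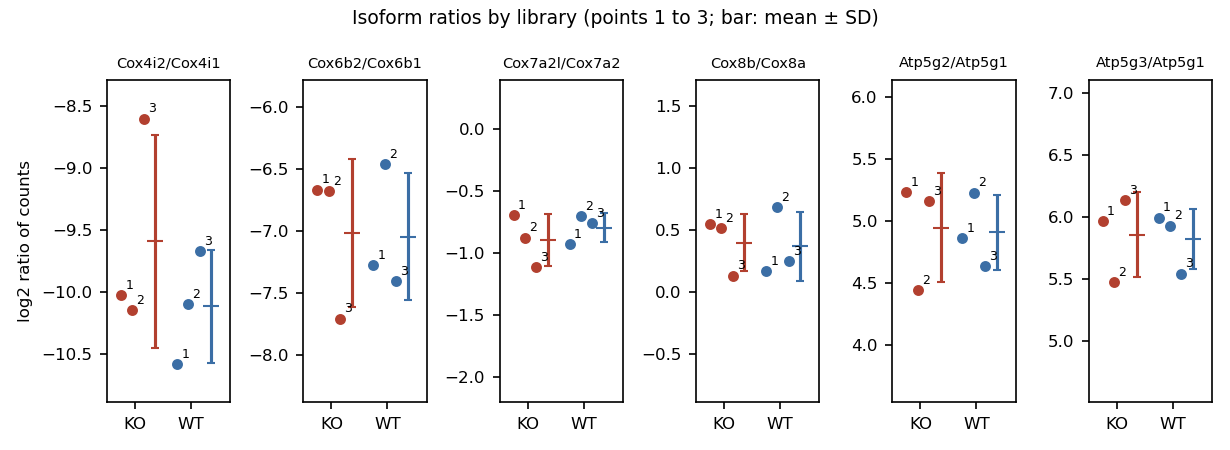
Log2 ratio of the counts of 6 isoform pairs in each library (points, numbered by replicate, KO left of WT), with the mean and SD of each genotype as a bar, on vertical axes of equal span. KO and WT points overlap in each pair, and the widest gap between means is the 0.52 of Cox4i2/Cox4i1, where KO 3 lies above the rest.

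The fold change of a subunit gene was higher where the GC content of its transcript was higher. Over the 45 genes, log2 fold change and GC content had a Spearman correlation of 0.40 (Pearson 0.49), and over 12889 nuclear genes a Spearman correlation of 0.41. With transcript length the Spearman correlation was 0.22 over the 45 genes and 0.15 over the nuclear genes. Genes are not independent replicates, and these correlations describe 6 shared libraries. The 15 subunit genes of highest GC (54.0% to 60.2%) had a median log2 fold change of 0.21, the middle 15 one of -0.26 and the 15 of lowest GC (39.6% to 49.0%) one of -0.22. Over the nuclear genes, the level in a library relative to the gene mean had a Spearman correlation with GC of 0.11, 0.02 and 0.48 in KO 1 to KO 3, against -0.31, -0.25 and -0.17 in WT 1 to WT 3. With the GC trend of each library removed, a step added after seeing the data, the correlation over the 45 genes was -0.09. Atp5d, with the highest GC of the 45 genes, then had a log2 fold change of 0.06 in place of 0.40, Cox6a1 0.08 in place of 0.37 and Cyc1 0.12 in place of 0.30. Cox8a had the opposite sign, at -0.06 in place of 0.21. Sdhd, of middling GC (49.4%), stayed at 0.09 beside 0.07. Other genes moved away from 0: Cox4i1 was at -0.42 in place of -0.18, Uqcr11 at -0.56 in place of -0.27, Sdhb at -0.30 in place of -0.15 and Atp5g2 at -0.32 in place of -0.12. In all, 25 of 45 genes came nearer to 0 and 20 moved farther. The median of the 15 genes of highest GC was then -0.06, that of the middle 15 -0.26 and that of the lowest 15 -0.07, and 15 of 45 genes were positive in place of 13.

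**Figure D4:**
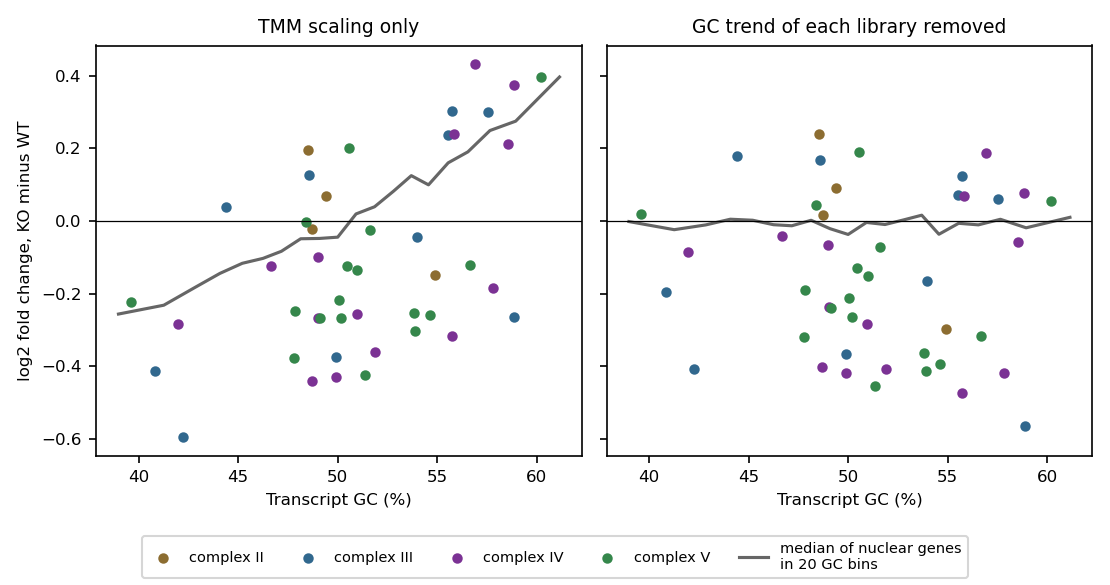
Log2 fold change, KO minus WT, of the 45 subunit genes against the GC content of their transcripts, before (left) and after (right) removing the GC trend of each library, with the median of nuclear genes in 20 GC bins as a line. On the left points and line climb with GC (Spearman correlation 0.40 over the 45 genes), and on the right the line is flat and the correlation is -0.09.

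The subunits of complexes III, IV and V that are encoded in the mitochondrial genome were set beside their nuclear partners. All 6 (mt-Cytb, mt-Co1, mt-Co2, mt-Co3, mt-Atp6 and mt-Atp8) had a negative log2 fold change, with a median of -0.97, and in 4 every KO library was below every WT library, beside the 9.39% of all genes above. None of the 6 had an edgeR adjusted p under 0.05, and 4 had an unadjusted p under 0.05, beside 11.8% of all genes. The 6 genes are not independent, so these counts describe shared libraries. Their transcripts were low in GC content, with a median of 38.7% and a range from 31.9% (mt-Atp8) to 39.9% (mt-Co1). Nuclear genes in the lowest GC bin (median GC 39.0%) had a median log2 fold change of -0.26. The part of GC content in the mitochondrial values was not tested. WT 2 was highest for each of the 6 genes. For mt-Co2 the level was 2712, 2575 and 1976 CPM in KO libraries, against 4516, 12164 and 4387 CPM in WT libraries. For mt-Atp8 it was 10.5, 13.6 and 12.5 CPM in KO libraries, against 17.7, 367 and 25.6 CPM in WT libraries. For mt-Atp6 it was 3785, 4133 and 1682 CPM in KO libraries, against 4381, 11026 and 4478 CPM in WT libraries. The transcript length used was 204 bases for mt-Atp8 and 681 for mt-Atp6. How reads were assigned between mt-Atp8 and mt-Atp6 was not tested, so the mt-Atp8 value may not be its RNA level. In complex IV, summed mitochondrial CPM per summed nuclear CPM was 12.9, 11.1 and 6.76 in KO libraries, against 13.6, 18.5 and 12.8 in WT libraries. KO 1 just reached the lowest WT library. In complex III the ratio was 8.80, 7.23 and 5.06 in KO libraries, against 8.57, 10.9 and 7.64 in WT libraries. In complex V it was 0.297, 0.359 and 0.131 in KO libraries, against 0.358, 0.833 and 0.364 in WT libraries. The groups overlapped in each complex, with KO 3 lowest and WT 2 highest, the same libraries that stood apart on the first principal component. The part of that library difference in the ratios was not tested.

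**Figure D5:**
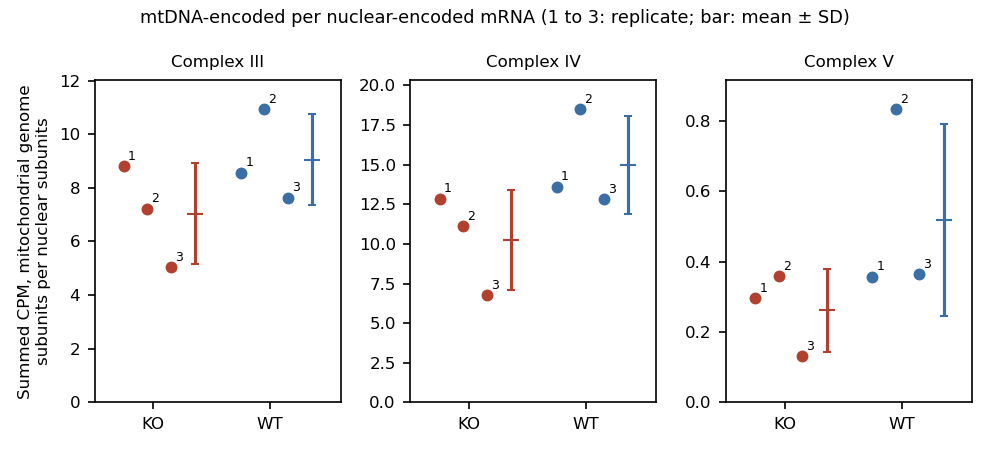
Summed CPM of mitochondrial genome subunits divided by summed CPM of nuclear subunits in complexes III, IV and V, by library (points, numbered by replicate, KO left of WT), with the mean and SD of each genotype as a bar. WT 2 is highest and KO 3 lowest in each panel, and KO and WT points overlap.

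Proteins that assemble these complexes were counted from a separate list of 38 genes, of which 36 were tested, 21 with a positive and 15 with a negative log2 fold change and a median of 0.06. None of the 36 was called, and 5 had an unadjusted p under 0.05, beside the 11.8% of all genes above. In 6 of the 36 every KO library was higher and in 2 every KO library was lower than all WT libraries, beside 10.1% and 9.39% of all genes. Coa4, an assembly factor of complex IV, was at 3.91, 3.39 and 3.03 CPM in KO libraries, against 6.67, 6.74 and 5.83 CPM in WT libraries. The groups did not overlap, and the log2 fold change was -0.89 (SE 0.24, adjusted p = 0.322 in edgeR). Cox11, which delivers copper to complex IV, was at 5.28, 5.54 and 5.23 CPM in KO libraries, against 2.99, 3.40 and 3.56 CPM in WT libraries. Here too the groups did not overlap, in the opposite direction, with a log2 fold change of 0.69 (SE 0.24, adjusted p = 0.375 in edgeR). Cox10, which makes the heme precursor of complex IV, had a log2 fold change of 0.39, and Cmc1, which binds newly made mt-Co1, one of -0.62 (adjusted p = 0.419 and 0.422 in edgeR).

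Of 11 regulators of respiratory genes, all tested, 4 had a positive and 7 a negative log2 fold change. Of these, 0 were called, beside 0.0595% of all genes. Every KO library was higher than all WT libraries in 1 of the 11, Esrra, beside 10.1% of all genes. Every KO library was lower in 2, Esrrb and Tfam, beside 9.39% of all genes. An unadjusted p under 0.05 was found for 2 of the 11, Esrra and Esrrb, beside 11.8% of all genes. These and Tfam are named here after their values were seen. Tfam was at 44.4, 44.2 and 37.3 CPM in KO libraries, against 47.4, 53.9 and 48.7 CPM in WT libraries (log2 fold change -0.25, adjusted p = 0.51 in edgeR). Esrra, the receptor ERR alpha, was at 113, 103 and 142 CPM in KO libraries, against 55.3, 80.8 and 78.3 CPM in WT libraries. Every KO library was above every WT library, with a log2 fold change of 0.74 (SE 0.21, adjusted p = 0.323 in edgeR). The GC content of the Esrra transcript was 61.8%. Nuclear genes in the highest of the 20 GC bins (median GC 61.1%) had a median log2 fold change of 0.40. The part of GC content in the Esrra value was not tested. The related Esrrb was at 0.682, 0.601 and 0.879 CPM in KO libraries, against 1.05, 1.80 and 2.09 CPM in WT libraries, a log2 fold change of -1.19 (SE 0.44, adjusted p = 0.386 in edgeR).

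Markers of other cell types were summed in each library, since muscle shares some of these isoforms with brown fat. The 14 skeletal muscle markers summed to between 62.4 and 108 CPM in KO libraries and between 76.0 and 129 CPM in WT libraries, and 1 of the 11 tested was positive, with a median log2 fold change of -0.68. Endothelial markers summed to between 315 and 646 CPM in KO libraries and between 241 and 406 CPM in WT libraries, and 5 of 5 were positive, with a median log2 fold change of 0.57. Erythrocyte markers summed to between 499 and 758 CPM in KO libraries and between 722 and 901 CPM in WT libraries, and 0 of 5 were positive, with a median of -0.40. White adipocyte markers summed to between 3403 and 6240 CPM in KO libraries, KO 3 being lowest, and between 3785 and 5052 CPM in WT libraries. Of these, 3 of 6 were positive, with a median of 0.08. Macrophage markers summed to between 53.2 and 96.8 CPM in KO libraries and between 71.3 and 115 CPM in WT libraries. Of these, 2 of 5 were positive, with a median of -0.07. The ranges overlapped in each list, no marker was at 0 in all libraries, none was called, and their part in the subunit values was not tested. Reads of near-identical copies may also be divided between a gene and its pseudogene: Atp5l2-ps, a processed pseudogene, had 762, 769 and 945 counts in KO libraries, against 1163, 130 and 1200 counts in WT libraries.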

How the data were processed

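Brown fat RNA was selected by poly(A) and sequenced with a stranded library kit, per the labels' protocols. The deposited table holds counts per gene as whole numbers, not normalized. The submitters' processing notes name HISAT2 2.1.0, featureCounts 1.6.2, DESeq2 and mm10; annotation release and strand setting are not stated there. Symbols, lengths and GC content came from GENCODE M 21 on that build (53620 of 53715 identifiers matched), using principal protein-coding transcripts.

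Genes were filtered with filterByExpr (minimum count 10, minimum total 15), leaving 15123. KO was set against WT with the edgeR 4.0.16 quasi-likelihood test (R 4.3.3, limma 3.58.1) on TMM-scaled libraries, genotype as the only term, and a Benjamini-Hochberg adjusted p of 0.05 over all genes. SE is the log2 fold change divided by the square root of F. CPM is TMM-scaled. With 3 libraries a genotype, edgeR p-values rest on the spread between mice, drawn for each gene toward a trend over all genes. The SE of a gene can thus differ from its own spread between these mice, as for Sdhd. No columns were identical, and all pairs within a genotype differed beyond sampling noise. Isoform ratios used a pseudocount of 0.5 and pairs with a mean of at least 10 counts. The fit was tested on simulated data.

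Members, lists and tests were chosen with earlier results of these data known. Given in each library were, per complex, the 3 genes of highest level per kilobase and those with the largest positive and negative fold change, genes whose groups did not overlap, and the isoform pairs; assembly factors were named by smallest p, up to 2 a direction. Alternatives were DESeq2 1.42.0 and its size factors, limma-voom, no filter, no mitochondrial genome genes, a replicate block and libraries left out. Added after seeing the data was removal of each library's GC trend (lowess span 0.3), alone and with the block. Summaries and plots used Python 3.11.15, pandas 2.3.3 and matplotlib 3.10.9.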

Additional observations from a re-analysis of the deposited data

How the results depend on the processing

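Over 15 alternatives, 0 subunit genes were called in each. Of all genes tested, 9 were called, against 168 with DESeq2, 663 without a filter, and between 0 and 27 with libraries left out. A fit with the replicate number as a block called 5, and the block with the GC trend removed called 2. Same-numbered libraries deviated together with correlations of -0.11, 0.10 and 0.09 for numbers 1, 2 and 3, and not every library correlated best with its own number, so the numbers were not taken as pairs. With libraries left out (1 at a time, or WT 2 and KO 3 together), the complex IV median ran from -0.31 to 0.0153 and that of complex V from -0.33 to 0.0245, and the medians of complexes II and III moved by less than the spread. Over the same fits the log2 fold change ran from -0.11 to 0.0211 for Atp5b, from -0.29 to 0.0655 for Atp5g1, from -0.33 to 0.19 for Atp5g2 and from -0.22 to 0.0245 for Atp5g3. It ran from -0.31 to 0.0149 for Cox4i1, from -0.11 to 0.71 for Cox4i2, from -0.41 to 0.0755 for Cox6b1, from -0.63 to 0.74 for Cox6b2 and from -0.12 to 0.31 for Sdha. Cox8a was at -0.059 with the GC trend removed and -0.0624 with the block added. The isoform difference ran from -0.15 to 0.67 for Cox6b2/Cox6b1, from -0.20 to 0.0561 for Cox7a2l/Cox7a2, from -0.0716 to 0.32 for Cox8b/Cox8a, from -0.11 to 0.29 for Atp5g2/Atp5g1 and from -0.10 to 0.23 for Atp5g3/Atp5g1. The cause of these reversals was not tested. The other 15 of the 25 tested genes named by the rule had 1 sign in all 15 alternatives, though many came close to 0, as Atp5a1 (0.00056 to 0.27), Uqcrh (-0.54 to -0.02), Atp5h (-0.48 to -0.02) and Sdhb (-0.30 to -0.02) did. With 3 libraries a genotype and a median SE of 0.22, differences of the size seen here were not detectable, which does not show that the genotypes are alike.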
